A study of Mus musculus with 35 samples.

Results

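Histone H3 trimethylated at lysine 27 (H3K27me3) was followed in 3 chromatin immunoprecipitation sequencing (ChIP-seq) libraries of mouse bone marrow macrophages. One library came from unstimulated cells, 1 from cells after 120 min of lipopolysaccharide (LPS) and 1 after 240 min. They were chosen as the libraries whose titles name this mark at those times, and they are 3 of the 35 libraries of the series. Their lists hold 9912 of the 250088 regions deposited in all, with 4280 regions unstimulated, 2687 at 120 min and 2945 at 240 min. The macrophages of all 3 groups were primary cells of wild type C57BL/6 females aged 8 to 12 weeks, and the same Millipore antibody was named for each. LPS, which comes from the surface of Gram-negative bacteria, activates macrophages through Toll-like receptor 4. A pair of later H3K27me3 libraries, 1 at 480 min of LPS and 1 labelled 480 min with 60 min of LPS and a 7 h delay in its title, is given beside the 3 where it helps to read them.

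H3K27me3 is written by Polycomb repressive complex 2, whose catalytic subunits are Ezh2 and Ezh1, and it is removed by the demethylases Kdm6a and Kdm6b. The mark forms broad domains over genes held silent, among them developmental regulators such as the Hox clusters in cells where they are not used. In female mammals it also spreads along the inactive X chromosome. In macrophages Kdm6b is known as a gene that LPS induces, which has made the mark a subject of study in the inflammatory response.

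Each group had 1 library, so no difference below was tested or has a replicate check. Sequencing depth is unknown, since the lists hold no read counts, and the absence of a region from a list means only that it is not listed. The dates that open the library titles are the same for 120 and 240 min and differ from that of the unstimulated library, and the 480 min and 7 h delay libraries share yet another date. The labels do not say what the date records, and it cannot be told apart from stimulation in the comparisons with the unstimulated library. The antibody target and the macrophage identity could not be checked against gene positions, because no annotation of the files' build was used here. The chromatin was pooled from many cells, so a mark carried by fewer cells and a weaker mark in each cell cannot be told apart.

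Counting every width, H3K27me3 covered between 24.11% and 26.19% of the genome in each of the 3 lists. The regions covered 691.7 Mb unstimulated, 636.7 Mb at 120 min and 683.0 Mb at 240 min, with 25.87% of the span that all lists reach at 240 min. The ratio to the unstimulated library was 0.921 at 120 min and 0.988 at 240 min. The 480 min library covered 670.5 Mb and the 7 h delay library 630.6 Mb, so both early values lie within the range of the other 3 libraries. The 240 min value was the closer to the unstimulated one.

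The narrower regions differed far more. Regions up to 100 kb covered 77.76 Mb unstimulated, 47.3 Mb at 120 min and 50.93 Mb at 240 min. The ratio to the unstimulated library was 0.608 at 120 min and 0.655 at 240 min, a difference of 30.5 Mb and 26.8 Mb. In number, there were 1659 such regions at 120 min and 1913 at 240 min, against 3108 unstimulated. The 2 early LPS libraries, which share a date, lay close to each other, with a ratio of 1.08 for 240 min over 120 min. The later libraries were above the unstimulated one, with 87.38 Mb at 480 min and 91.3 Mb after the 7 h delay.

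**Figure D1:**
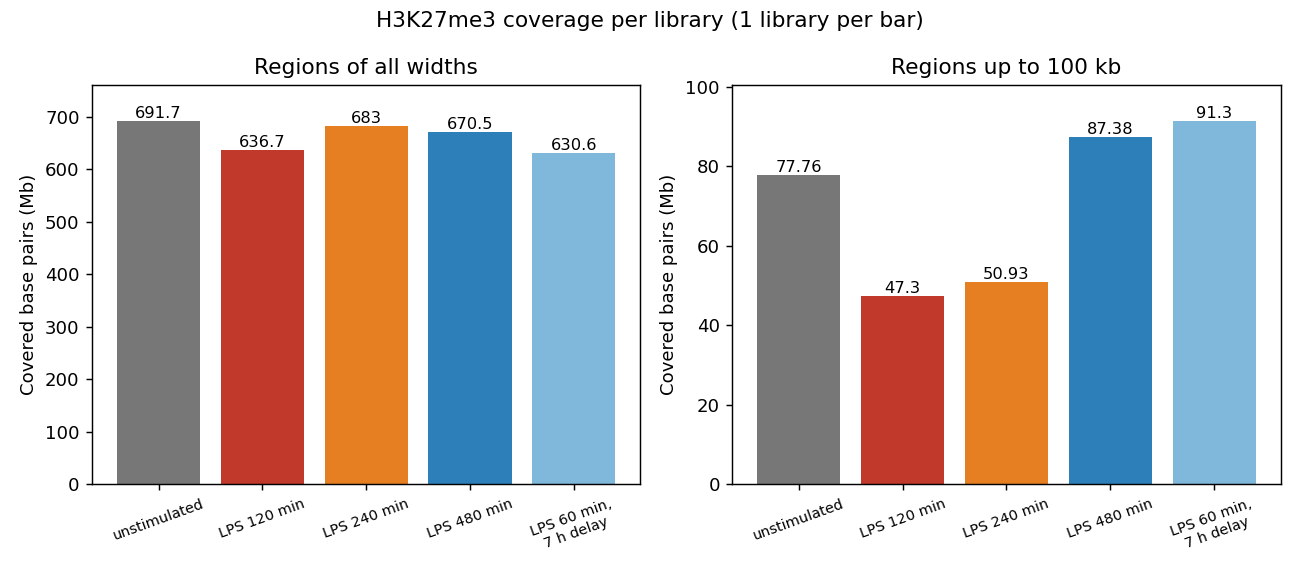
Covered base pairs in Mb (y axes, from 0) of the 5 H3K27me3 libraries in order of time, with all widths on the left and regions up to 100 kb on the right, 1 library per bar. All widths give 630.6 to 691.7 Mb, while regions up to 100 kb give 47.3 and 50.93 Mb at 120 and 240 min and 77.76 to 91.3 Mb in the other 3 libraries.

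These ratios depend on how much of each list is used. Taking equally many of the best-scored regions up to 100 kb from each list, as many as the 120 min list holds, turned the ratio of covered base pairs to 1.24 at 120 min and 1.13 at 240 min. Using the better-scored 50% of each list kept it at 0.619 and 0.674. Taking the same share of each list keeps the ratio of region numbers by construction, so these values are no separate check of the shorter LPS lists. Equal numbers of regions remove the difference in number by construction, and they drop the lowest-scored unstimulated regions. The difference in width also grew. The ratio of block medians, LPS over unstimulated, went from 1.18 to 1.46 at 120 min and from 1.12 to 1.32 at 240 min. The ratios above 1 therefore describe equally many best-scored regions and do not bear on the shorter LPS lists.

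The difference was graded by width. Regions up to 1 kb numbered 118 unstimulated, 59 at 120 min and 56 at 240 min. Regions of 1 to 10 kb numbered 1239 unstimulated, 550 at 120 min and 671 at 240 min, a ratio to the unstimulated list of 0.444 at 120 min and 0.542 at 240 min. For 10 to 100 kb the ratios were 0.60 and 0.677, from 1050 and 1186 regions with LPS against 1751 unstimulated. Above 100 kb the lists were closer. Regions of 100 kb to 1 Mb had ratios of 0.857 and 0.864, and regions over 1 Mb numbered 123 unstimulated, 129 at 120 min and 126 at 240 min. The number of listed regions was therefore lowest relative to the unstimulated library below 10 kb and nearly equal above 1 Mb.

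**Figure D2:**
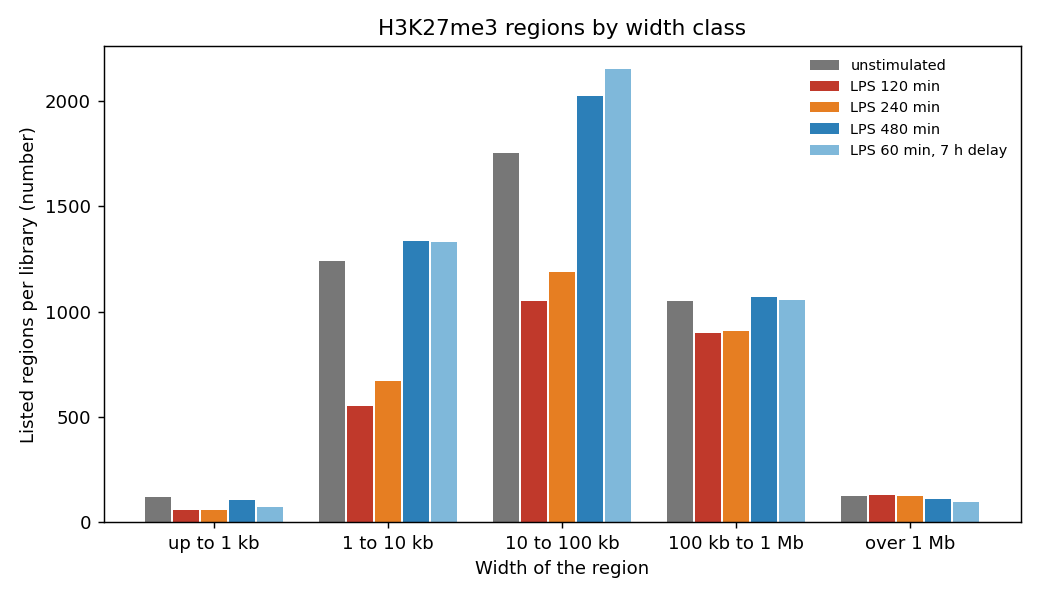
Number of listed H3K27me3 regions (y axis) in 5 width classes (x axis) for the 5 libraries, 1 bar per library. Between 1 and 100 kb the bars of 120 and 240 min are the lowest, with 550 and 671 regions of 1 to 10 kb against 1239 unstimulated, while over 1 Mb all 5 libraries hold between 95 and 129 regions.

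With fewer narrow regions, the typical width was larger. The median region was 31.8 kb wide unstimulated, 57.58 kb at 120 min and 43.87 kb at 240 min. After overlapping regions of a list were joined into blocks, the median block was 52.32 kb unstimulated, 87.28 kb at 120 min and 77.24 kb at 240 min. The N50 of the blocks, the width at which wider blocks hold 50% of the covered base pairs, did not follow the medians, with 1713 kb unstimulated, 1471 kb at 120 min and 2485 kb at 240 min. Up to 100 kb the medians of the blocks were closer, at 17.33 kb unstimulated, 20.45 kb at 120 min and 19.37 kb at 240 min. The lists were nested: 42.3% of unstimulated regions, 35.5% of those at 120 min and 41.8% of those at 240 min lay wholly inside another region of the same list, and no region overlapped another only in part.

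Most base pairs of the narrower unstimulated regions were inside listed H3K27me3 with LPS as well. Of the 77.76 Mb of the unstimulated regions up to 100 kb, 45.7% lay in regions up to 100 kb at 120 min, 39.1% lay only in wider regions and 15.2% in no listed region. At 240 min the shares were 50.2%, 35.8% and 14.0%. At 480 min they were 68.0%, 21.6% and 10.4%. The early lists thus had more of these base pairs in wider regions only, and also more in no listed region, than the 480 min list. For comparison, listed regions of any width reached 24.1% of the genome at 120 min and 25.9% at 240 min.

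**Figure D3:**
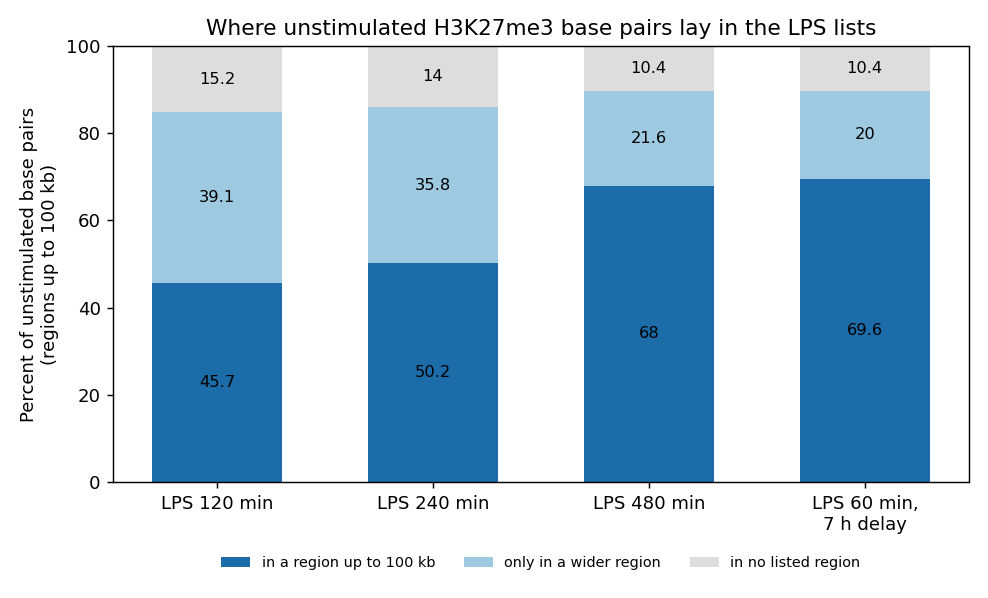
Percent of the base pairs in unstimulated H3K27me3 regions up to 100 kb (y axis) by where they lay in each LPS list (x axis): in a region up to 100 kb, only in a wider region, or in no listed region. The share in no listed region is 15.2% at 120 min and 10.4% at 480 min, and the larger differences are between the other 2 classes.

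The base pairs not kept in regions up to 100 kb came to 42.2 Mb at 120 min and 38.7 Mb at 240 min. At 120 min, 40.5% of them had lain outside any wider unstimulated region and were inside a wider region of the LPS list, and 31.5% lay in a wider region of both lists, so that only the inner region was missing. A further 19.8% had lain in no wider region and were in no region at 120 min, and 8.20% had lain in a wider unstimulated region and were unlisted at 120 min. At 240 min the same 4 shares were 37.6%, 34.3%, 21.4% and 6.76%. Base pairs inside a wider region of the LPS list thus made up most of the difference at both times. Regions over 20 Mb count as wider regions here, and these shares were not computed without them.

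In the other direction, most of what the LPS lists held was already listed unstimulated. Of the 47.3 Mb in regions up to 100 kb at 120 min, 75.2% lay in unstimulated regions up to 100 kb, 16.1% only in wider ones and 8.72% in none. Of the 50.93 Mb at 240 min, the shares were 76.7%, 14.8% and 8.55%. By region, 93.6% of the regions up to 100 kb at 120 min and 92.8% of those at 240 min overlapped an unstimulated region up to 100 kb, whereas 57.4% and 63.4% of the unstimulated regions overlapped one of 120 min and of 240 min. The Jaccard index, base pairs in both lists over base pairs in either, was 0.397 between 120 min and unstimulated and 0.436 between 240 min and unstimulated. It was 0.495 between 240 and 120 min, the pair that shares a date, and 0.534 between the 7 h delay and 480 min, the other such pair. Among pairs of different dates, the unstimulated list had an index of 0.471 with each later list. The early lists against the later ones ran from 0.342 to 0.379. With all widths the indices against unstimulated were 0.535 for 120 min, 0.596 for 240 min, 0.654 for 480 min and 0.661 for the 7 h delay. The pairs that share a date then had 0.609 and 0.719.

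The unstimulated regions up to 100 kb that overlapped no region up to 100 kb of an early LPS list were mainly those with low scores. The score is the authors' own value per region and was used to rank regions within the unstimulated list, which was divided into 4 score classes of 777 regions each. In the class with the lowest scores, 26.8% of the regions overlapped a region up to 100 kb at 120 min and 30.5% at 240 min. In the next class the shares were 45.9% and 57.9%, and in the one above it 69.6% and 75.3%. In the class with the highest scores they were 87.1% and 89.8%. The same classes, from lowest to highest, gave 72.2%, 85.2%, 91.8% and 94.1% at 480 min, so the LPS lists differed most from each other in the low classes. Their median widths were 19.14, 13.23, 10.16 and 14.28 kb, so the regions with the lowest scores were not the narrowest. Counting LPS regions of any width, 68.3% of the lowest class were overlapped at 120 min and 71.4% at 240 min, against 99.5% and 99.7% of the highest.

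**Figure D4:**
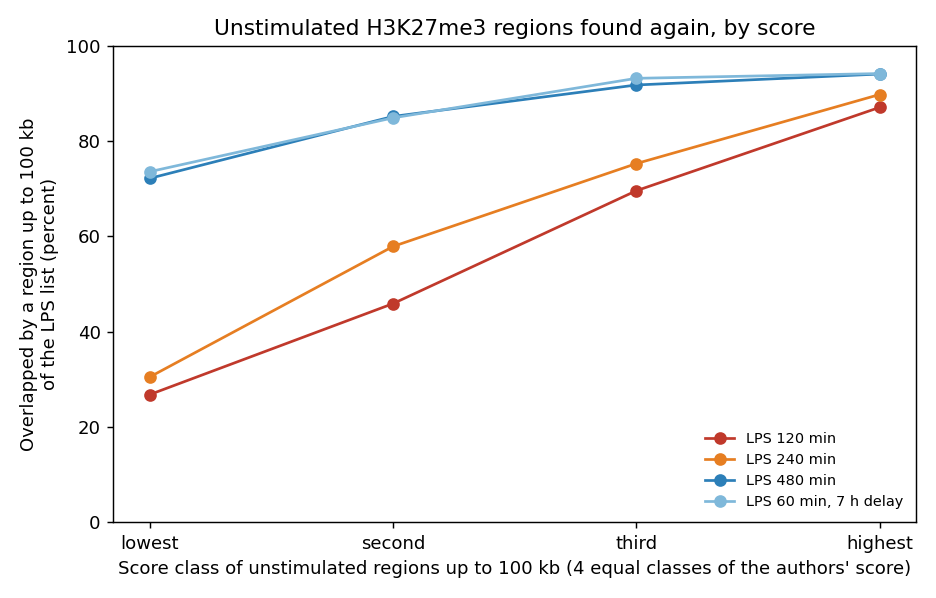
Percent of unstimulated H3K27me3 regions up to 100 kb that overlapped a region up to 100 kb of an LPS list (y axis), by class of the authors' score in the unstimulated list (x axis), with 777 regions in each of 4 classes. The lines of 120 and 240 min climb from 26.8% and 30.5% in the lowest class to 87.1% and 89.8% in the highest, and those of the 2 later libraries lie above them in every class.

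Widths could be compared for regions that overlapped closely in both lists. A counterpart covering at least 50% of both regions was found at 120 min for 1291 of the 3108 unstimulated regions up to 100 kb and at 240 min for 1464. The median ratio of widths, LPS over unstimulated, was 1.02 at 120 min and 1.01 at 240 min, with quartiles of 0.929 and 1.20 at 120 min and 0.901 and 1.17 at 240 min. The starts of such regions differed by a median of 800 bp at 120 min and 770 bp at 240 min. The overlap asked of a counterpart keeps out regions of very unequal width, so these ratios describe the matched regions alone. Of the unstimulated regions up to 100 kb, 1783 overlapped a region up to 100 kb at 120 min and 1970 at 240 min, more than had such a counterpart.

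The regions that the authors' score ranked highest in the unstimulated list were listed at all 3 times. The best-scored unstimulated region, chr7:151571581-151660890 (mm9, 89.3 kb), had as its closest counterpart the 71.2 kb region chr7:151588101-151659320 at 120 min, which was the best-scored of that list, and the 62.4 kb region chr7:151596921-151659330 at 240 min. The second, chr6:52158091-52227030 (68.9 kb), was matched by a 117 kb region at 120 min that began within 1 kb of it and by a 69.6 kb region at 240 min with almost the same ends. The third, chr8:114198861-114281670 (82.8 kb), was matched by 80.6 kb at 120 min and 162 kb at 240 min. All of the 10 best-scored unstimulated regions had a counterpart in both LPS lists, with the lowest Jaccard index of any of them at 0.397.

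Regions up to 100 kb were also merged over the 3 lists where they overlapped by at least 1 bp, which gave 2641 merged regions with a median width of 24.69 kb. The unstimulated list held 2447 of them, the 120 min list 1393 and the 240 min list 1577. A merged region was called lost at a time if the unstimulated list and not the LPS list held it, and gained in the opposite case. At 120 min 1153 regions were lost, 43.7% of all merged regions, and 99 were gained, 3.75%. At 240 min 992 were lost, 37.6%, and 122 were gained, 4.62%. Both comparisons use the same unstimulated list. With lists of equal length, 335 were lost and 335 gained at 120 min and 302 lost and 296 gained at 240 min. Lists of equal length bring these counts close to each other by construction, so they do not bear on whether more regions were lost than gained.

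Most lost regions lay at least in part inside a wider region of the LPS list. The median width was 14.8 kb for lost and 35.6 kb for gained regions at 120 min, and 14.71 kb and 18.77 kb at 240 min. A merged region joins the regions of every list that holds it, so these widths depend on the number of lists behind a region. Of the 1153 lost at 120 min, 64.6% lay at least in part inside a wider region of that list. The other 408 were counted as in no listed region. Of the 992 lost at 240 min, 65.6% lay at least in part inside a wider region and the other 341 were counted as in none. Of the gained regions, 85 of the 99 at 120 min and 100 of the 122 at 240 min lay at least in part inside a wider unstimulated region. The share that went with a change between listed and unlisted DNA was thus 35.4% of the lost and 14.1% of the gained regions at 120 min, and 34.4% and 18% at 240 min.

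By pattern, 1142 of the 2641 merged regions were held by all 3 lists, 840 by the unstimulated list alone, 313 by unstimulated and 240 min, and 152 by unstimulated and 120 min. The remaining 27 were held by both LPS lists and not unstimulated, 95 by 240 min alone and 72 by 120 min alone. Of the 840 held by neither early LPS list, 65.7% were listed at 480 min and 66.2% after the 7 h delay. These shares were below the 81.6% and 82.2% of all 2641 merged regions, and below the 97.5% and 97.9% of those held by all 3.

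Among merged regions up to 100 kb wide, the widest of each pattern show what such calls look like. The widest held by all 3, chr4:123621101-123720780 (99.7 kb), was covered to 63.4% unstimulated, 100% at 120 min and 44.8% at 240 min. Among those held by all 3, chr19:45150211-45249770 (99.6 kb) was covered to 99.0% unstimulated, 99.5% at 120 min and 87.0% at 240 min, and chr16:14197481-14296050 (98.6 kb) to 97.1%, 98.3% and 98.4%. Among those held by all 3 but covered unequally, chr15:85791961-85891300 (99.3 kb) was covered to 10.1% unstimulated, 100% at 120 min and 13.8% at 240 min by regions up to 100 kb, but to at least 99.3% in each list by regions of any width. The widest of these held unstimulated only, chr19:58931551-59031370 (99.8 kb), was wholly covered by wider regions at both LPS times. At each of these times it lay within a region of 58.2 Mb that spans nearly all of chromosome 19, described below. The next, chr1:35983101-36082790 (99.7 kb), was covered to 47.5% at 120 min and 0.311% at 240 min by regions of any width and to 0% at 480 min. A 99.0 kb region on chromosome 6, chr6:84388061-84487110, was wholly covered by a wider region at 120 min, was not covered at 240 min and was again listed in full at 480 min.

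Of the merged regions up to 100 kb held by both LPS lists and not unstimulated, the 5 widest were all inside wider unstimulated regions for at least 96.9% of their length. The widest, chr7:148936861-149036450 (99.6 kb), was covered to 76.2% at 120 min and 100% at 240 min by regions up to 100 kb. In the unstimulated list 98.7% of it was covered by a wider region, and no region up to 100 kb touched it. The region chr7:146304221-146390070 (85.8 kb) was covered to 95.9% at 120 min and 100% at 240 min and to 100% by a wider region unstimulated.

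By chromosome, regions up to 100 kb covered less at both early times on all 19 autosomes. The ratio to the unstimulated library ran from 0.455 on chromosome 19 to 0.744 on chromosome 17 at 120 min, with a median of 0.626. At 240 min it ran from 0.517 on chromosome 12 to 0.867 on chromosome 17, with a median of 0.633. At 480 min only 2 autosomes were below 1 and the median was 1.13. In the unstimulated list the highest covered shares among chromosomes 1 to 19 and X were 4.42% on chromosome 11 and 4.21% on chromosome 19, and the lowest were 0.979% on X and 2.01% on chromosome 10. The lower coverage up to 100 kb was thus spread over the genome.

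The X chromosome stood below every autosome in its ratio to the unstimulated library up to 100 kb, at both early times. Its regions up to 100 kb covered 1.63 Mb unstimulated, 0.288 Mb at 120 min and 0.107 Mb at 240 min, ratios of 0.177 and 0.0657. Of the 46 merged regions of X that the unstimulated list held, 31 were lost at 120 min, 67.4%, and 33 at 240 min, 71.7%. Over all chromosomes 47.1% of the held merged regions were lost at 120 min and 40.5% at 240 min, and the highest share of an autosome was 56.7%, on chromosome 18 at 120 min. Nearly all of this DNA was in wider regions: 82.4% of the unstimulated base pairs on X lay only in wider regions at 120 min and 91.4% at 240 min, against 38.2% and 34.6% on autosomes. The share of X in no listed region was 7.37% and 2.52%, below the 15.3% and 14.3% of autosomes. The class from 10 to 100 kb carried the difference, with 30 regions unstimulated, 4 at 120 min and 2 at 240 min. Up to 10 kb the ratios on X were 0.747 at 120 min and 0.624 at 240 min, above the autosome medians of 0.476 and 0.518. Coverage up to 100 kb on X was also lower in the later libraries, with ratios of 0.457 at 480 min and 0.625 after the 7 h delay, and with lists of equal length the ratios were 0.908 at 120 min and 0.337 at 240 min.

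**Figure D5:**
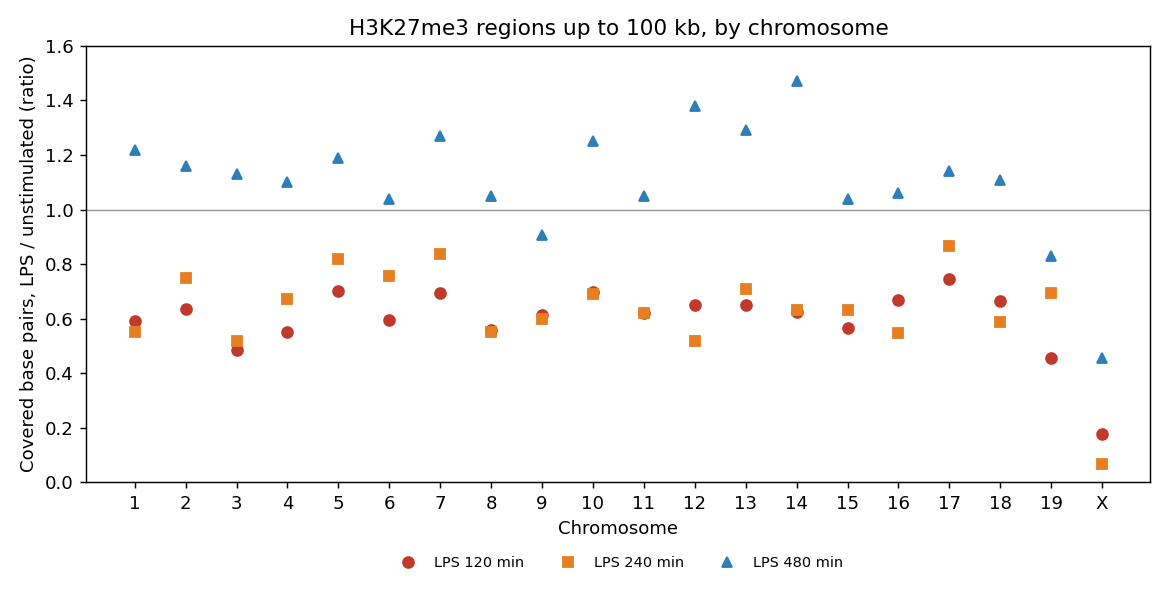
Ratio of covered base pairs in H3K27me3 regions up to 100 kb, LPS over unstimulated (y axis), on chromosomes 1 to 19 and X (x axis) at 120, 240 and 480 min, with a line at 1. At 120 and 240 min every autosome lies below 1, between 0.455 and 0.867, and X lies lowest at 0.177 and 0.0657, while 17 autosomes lie above 1 at 480 min.

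With all widths, single very wide regions set the chromosome values. X was the most covered chromosome unstimulated, at 56.2%, followed by chromosome 8 at 45.1%, and the least covered were chromosome 16 at 16.1% and chromosome 12 at 16.3%. X was covered to 31.9% at 120 min and 57.7% at 240 min. The widest unstimulated region, chrX:33244831-104163170 (70.9 Mb), recurred with a Jaccard index of 0.999 at 240 min and of 1 at 480 min and after the 7 h delay, but its best match at 120 min had an index of 0.0517. Without regions over 20 Mb, X had 54.2 Mb unstimulated, 53.1 Mb at 120 min and 55.1 Mb at 240 min. The lower all-width coverage of X at 120 min therefore rests on 1 region.

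Chromosome 19 showed the opposite case. Its all-width coverage was 58.2 Mb at both LPS times, against 11.1 Mb unstimulated, a ratio of 5.25 and the highest of any autosome at each time. A single region of 58.2 Mb, nearly the whole chromosome, accounted for it at 120 min (chr19:3187111-61342430) and at 240 min (chr19:3182171-61342430), and it was in none of the other 3 lists. Its score was among the lowest of both lists, with 1.67% of the regions at 120 min and 0.985% of those at 240 min scoring no higher. Without regions over 20 Mb, chromosome 19 had 11.1 Mb unstimulated, 11.8 Mb at 120 min and 10.9 Mb at 240 min. The lowest all-width ratios were 0.281 on chromosome 18 at 120 min and 0.364 on chromosome 9 at 240 min, and there too a region over 20 Mb was listed unstimulated and not at that time, without which the ratios were 0.756 and 0.683.

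Some very wide regions did recur. The 28.0 Mb region chr8:9911041-37907150 was in all 5 lists, with a Jaccard index of 1 to its counterpart at 120 and at 240 min. Its counterparts scored low as well, with 0.893% of the regions at 120 min and 2.58% at 240 min scoring no higher. The 29.5 Mb region chr9:94269131-123765540 was in the unstimulated and 120 min lists but not at 240 min. It was listed again later, with a Jaccard index of 0.968 at 480 min and 0.97 after the 7 h delay. Regions over 20 Mb numbered 5 unstimulated, 3 at 120 min and 4 at 240 min. Without them the covered totals were 558.3 Mb unstimulated, 541.7 Mb at 120 min and 546.4 Mb at 240 min, ratios of 0.970 and 0.979 to the unstimulated library.

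Little of the H3K27me3 was shared with acetylated histone H4 (H4ac), a mark of active chromatin, or with RNA polymerase II (Pol II). Regions of H4ac up to 10 kb held 1.26% and 0.714% of the unstimulated H3K27me3 base pairs up to 100 kb in the 2 unstimulated H4ac libraries, against 1.67% and 1.31% of the genome. At 120 min the H4ac libraries of that time held 1.14% and 0.664% of the H3K27me3 list, against 1.27% and 0.891% of the genome. At 240 min they held 1.12% and 0.618%, against 1.55% and 1.11% of the genome. Pol II regions up to 100 kb held 0.871% of the unstimulated list, 0.928% of the 120 min list and 1.04% and 1.36% of the 240 min list, against 2.53%, 1.84%, 2.22% and 3.29% of the genome. In each of these libraries the share of H3K27me3 in active regions was below that of the genome.

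The base pairs that differed between the lists overlapped active regions more than those in both. Of the 42.2 Mb in unstimulated regions up to 100 kb and not in those of 120 min, the 2 unstimulated H4ac libraries held 1.54% and 0.945%, against 0.939% and 0.439% of the 35.56 Mb in both lists. Unstimulated Pol II held 1.30% of the base pairs listed only unstimulated, against 0.366% of those in both lists. The 11.74 Mb in regions up to 100 kb at 120 min and not unstimulated were also above the shared base pairs, with 2.01% and 1.46% in the H4ac libraries of 120 min, against 0.858% and 0.40%, and 2.12% in Pol II of 120 min, against 0.535%. At 240 min, unstimulated H4ac held 1.54% and 0.987% of the base pairs listed only unstimulated, against 0.987% and 0.443% of those in both lists. Pol II differed less there: unstimulated Pol II held 1.03% against 0.709%, and the 2 Pol II libraries of 240 min held 1.05% and 1.11% against 0.734% and 1.06%. For base pairs listed only at 240 min, unstimulated Pol II held 0.786%, and Pol II of 240 min held 2.06% and 2.36%. Base pairs listed in 1 list only, in either direction, thus had a higher share of active regions than base pairs in both lists. Some of these differences were small. Base pairs listed only unstimulated were still below the genome shares of 1.67% and 1.31% for unstimulated H4ac and 2.53% for unstimulated Pol II. Base pairs listed only at 120 min were above the genome shares of that time, 1.27% and 0.891% for H4ac and 1.84% for Pol II. For base pairs listed only at 240 min, H4ac of that time held 1.49% and 0.782%, below the 1.55% and 1.11% of the genome.

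Chromosome Y, which the females that gave these cells lack, had 2 regions unstimulated, 1 at 120 min and 3 at 240 min. The 480 bp region chrY:2632181-2632660 had the highest score of the 240 min list, and a 500 bp region unstimulated, chrY:2631841-2632340, overlapped it. Their part in the totals was small, with 0.036 Mb covered unstimulated, 0.00071 Mb at 120 min and 0.185 Mb at 240 min.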

How the data were processed

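The 5 H3K27me3 lists used here, the H4ac and Pol II lists, and mm9 as the genome build are as the authors deposited them, the build per the submitters' processing notes. Each list holds positions and the authors' deposited score per region, used for ranking inside 1 list and nothing else. No source used here names the aligner, the region caller or the thresholds. Caller settings can change how many narrow regions are listed. The lists hold no read counts.

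Regions were used at all widths and, separately, up to 100 kb (H4ac up to 10 kb). Overlaps of at least 1 bp joined regions. Covered percent is of the furthest region end per chromosome in any of the 35 lists. Coordinates are 1-based. Named regions are the widest merged regions up to 100 kb of each pattern, the best-scored, the widest blocks and the extreme chromosomes. The best-scored and those over 20 Mb were chosen after values were seen. The members and lists were chosen with earlier results of these data known. With 1 library per group, no test was run. Interval code was tested on simulated data. Python 3.11.15, pandas 2.3.3, numpy 2.4.6 and matplotlib 3.10.9 were used.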

Additional observations from a re-analysis of the deposited data

How the results depend on the processing

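Of 72 alternative values for 24 results, 36 kept their direction and stayed within 1.5 times, 29 moved further and 7 turned direction. With lists of equal length, the covered ratio to unstimulated turned to 1.24 at 120 min and 1.13 at 240 min up to 100 kb, and to 2.33 and 2.02 at all widths, since the 120 min list, the shortest, then gives up no region and the unstimulated list its lowest-scored ones. Lost regions were then 335 and 302 and gained regions 335 and 296, close to each other by construction, the all-width Jaccard index 0.336 and 0.38, and the ratio of all-width block medians 2.92 and 2.22. The covered ratio on X up to 100 kb became 0.908 and 0.337, that of X at all widths 1.52 and 2.60, and that of chromosome 19 at all widths 14.7 and 2.06. Restricting each list to its better-scored 50% gave 635 and 542 lost regions and 34 and 49 gained ones, and the all-width covered ratio at 240 min was 1.06. That setting keeps the ratio of region numbers by construction. With regions up to 1 kb the covered ratio was 0.375 and 0.431, and up to 10 kb that of X was 0.747 and 0.624. With merged regions of all widths, 306 and 248 were lost and 12 gained at each time, and with at least 50% of a merged region covered, 228 and 259 were gained. Limits of 1 Mb and 20 Mb were chosen after seeing the data. With regions up to 1 Mb the covered ratio was 0.9 at 120 min and 0.886 at 240 min, against 0.608 and 0.655 up to 100 kb, so its size depends on the width limit. Without regions over 20 Mb, the all-width ratio of X at 120 min was 0.981 and that of chromosome 19 was 1.07 at 120 min and 0.98 at 240 min, since 1 region sets each of them. Other causes were not tested.

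No paired analysis was possible because each group had 1 library and no result comes from a test, and leaving out a replicate was not possible for the same reason. Gene starts held per library, with their alternatives, were not run, because no annotation of mm9 was used here. Unknown depth limits every count of regions.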
